A study of Mus musculus with 48 samples.

Results

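The chemosensory receptors examined here are the 236 targets, of 19962 gene targets in the table, whose mouse symbols begin with Vmn1r, Vmn2r, Tas1r, Tas2r or Taar followed by a number. They comprise 115 Vmn1r and 72 Vmn2r vomeronasal receptors, 3 Tas1r and 35 Tas2r taste receptors and 11 Taar trace amine-associated receptors. They were chosen by symbol, without use of any value, as receptors not known for wide expression in brain tissue, to show how targets near background behave between genotypes. All 236 symbols matched a protein-coding gene in the RefSeq table (assembly GRCm38.p6).

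RNA was measured in mouse brain with GeoMx digital spatial profiling, in which probes bound to RNA in a tissue section carry tags that are released from chosen regions by light and then sequenced. Sections came from brains fixed by perfusion and frozen, and regions were segmented by staining for TMEM119, a microglial surface protein, and GFAP, the filament protein of astrocytes. The deposited table has 16 columns, of which 5 are headed 5xFAD-LynKO, 5 are headed 5xFAD and 6 are headed WT. No heading names a stain. The design text says that microglial expression was analysed in these genotypes, and on that basis the columns are read as TMEM119-positive. 5xFAD is a transgenic line in which the neuronal Thy1 promoter drives mutant human amyloid precursor protein and presenilin, 5xFAD-LynKO is that line crossed with a knockout of Lyn, a Src-family kinase of myeloid cells, and WT is wild type. The labels give neither age nor sex, and the APP group of the design text was not used here. The design text describes 6 regions per brain slice, and which animal each region came from is unknown. Several regions may stem from 1 animal. The series has 24 regions, so all columns of a genotype may even come from 1 slice. Genotype and animal could then not be told apart. All p-values given here measure only the spread between regions and would be too small where regions share an animal.

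Vomeronasal receptors are G protein-coupled receptors of sensory neurons in the vomeronasal organ, where they detect pheromones and other social cues. Vmn1r receptors work with the G protein subunit Gnai2 and Vmn2r receptors with Gnao1, and both excite the cell through the channel Trpc2. Tas1r receptors pair with each other to detect sweet and umami tastes and Tas2r receptors detect bitter compounds, with signalling through the G protein gustducin (Gnat3), the phospholipase Plcb2 and the channel Trpm5. Taar receptors detect amines, most of them in the olfactory epithelium.

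Whole-table facts bear on every value below. The values of each column were whole multiples of 1 step for 19959 of 19963 rows, and the sum of those multiples, taken as implied counts, ran from 3207094 to 5793533 in 5xFAD-LynKO columns, from 3205406 to 4148785 in 5xFAD columns and from 1194248 to 2548601 in WT columns. The median of a column was identical within a genotype but differed between genotypes, at 196 in 5xFAD-LynKO, 159 in 5xFAD and 86.7 in WT, so levels were set relative to the column median or to the negative probe, a control that matches no mouse transcript. Lyn was 1.09 to 1.32 times the negative probe in 5xFAD-LynKO columns, 1.07 to 1.23 times in 5xFAD columns and 1.09 to 1.51 times in WT columns, with overlap between all groups. Where its probe lies relative to the deletion is not given, so Lyn does not check the 5xFAD-LynKO headings. Of 12 microglial markers, 1 exceeded 1.5 times the negative probe in each 5xFAD-LynKO column, 1 to 6 did in 5xFAD columns and 6 to 11 did in WT columns, and Tmem119 itself lay at 0.788 ± 0.0354 times the negative probe in 5xFAD-LynKO, 0.685 ± 0.087 times in 5xFAD and 0.969 ± 0.104 times in WT (SD, n = 5, 5 and 6). The 100 table rows around Tmem119 (Tmem114 to Tmem212) had medians of 1.22 times in 5xFAD-LynKO, 1.01 times in 5xFAD and 1.38 times in WT. In such segments, fewer cells of a type and less RNA per cell cannot be told apart.

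The receptors did not all sit at the level of the negative probe. The family medians of Vmn1r, Vmn2r and Taar lay above it in all 16 columns, whereas those of Tas1r and Tas2r lay below it in all 16 columns. Vmn1r receptors had a family median of 1.23 ± 0.103 times the negative probe in 5xFAD-LynKO, 1.13 ± 0.089 times in 5xFAD and 1.36 ± 0.0777 times in WT (SD, n = 5, 5 and 6 columns). Vmn2r receptors stood at 1.20 ± 0.112 times in 5xFAD-LynKO, 1.07 ± 0.0942 times in 5xFAD and 1.30 ± 0.0894 times in WT. The bitter taste receptors of the Tas2r family stood at 0.864 ± 0.04 times in 5xFAD-LynKO, 0.917 ± 0.0269 times in 5xFAD and 0.907 ± 0.0213 times in WT. Taar receptors stood at 1.05 ± 0.0184 times in 5xFAD-LynKO, 1.10 ± 0.0217 times in 5xFAD and 1.12 ± 0.0651 times in WT. The set is thus no uniform background, since the vomeronasal families and the taste families fall on opposite sides of the control probe. Other families with tissue-restricted expression resembled the taste receptors in level: the 929 olfactory receptors had a median of 0.915 ± 0.0259 times in 5xFAD-LynKO, 0.944 ± 0.0233 times in 5xFAD and 0.910 ± 0.0229 times in WT.

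**Figure D1:**
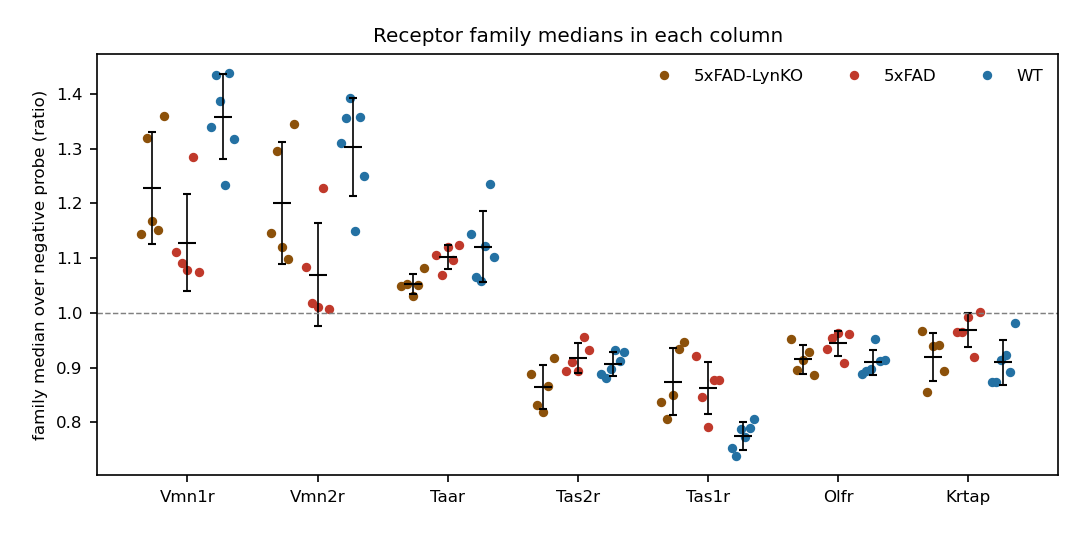
Family median over the negative probe (vertical axis, ratio) for 5 receptor families, the olfactory receptors (Olfr) and the keratin-associated proteins (Krtap). Each point is a column, bars give mean and SD by genotype, and the dashed line marks the negative probe. Vmn1r, Vmn2r and Taar lie above the line in all 16 columns and Tas1r and Tas2r below it.

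Over all 236 receptors the median was 1.11, 1.24, 1.10, 1.10 and 1.28 times the negative probe in 5xFAD-LynKO columns 1 to 5. It was 1.07, 1.03, 1.03, 1.20 and 1.03 times in 5xFAD columns 1 to 5, and 1.16 to 1.32 times in the 6 WT columns. The 5xFAD columns were thus the lowest apart from column 4, which lay inside the WT range, and columns 2 and 5 of 5xFAD-LynKO also lay inside it. Those 3 columns were also the ones with most targets of any kind above 1.5 times the negative probe among the 10 transgenic columns, at 3359 and 3426 in 5xFAD-LynKO columns 2 and 5 and 2838 in 5xFAD column 4, against 894 to 2076 in the other 7. WT columns had 2691 to 4762 such targets. What part this breadth of signal has in the receptor levels was not tested. Relative to the column median, the receptor median was 1.09 ± 0.0553 in 5xFAD-LynKO, 1.01 ± 0.0615 in 5xFAD and 1.13 ± 0.0475 in WT.

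The negative probe itself moved against the column median. It was 0.941 ± 0.0268 of the column median in 5xFAD-LynKO, 0.947 ± 0.01 in 5xFAD and 0.894 ± 0.0193 in WT (SD, n = 5, 5 and 6). The 5xFAD columns exceeded the WT columns by 0.0523, with no overlap (exact two-sided permutation p = 0.00433, the smallest this design allows, adjusted p = 0.013 over 3 comparisons). The 5xFAD-LynKO columns exceeded WT by 0.0465 (exact permutation adjusted p = 0.0195) and differed from 5xFAD by -0.0058 (exact permutation adjusted p = 0.651). Differences from WT are therefore lower relative to the negative probe than relative to the column median: over all targets the median log2 difference of 5xFAD against WT was -0.07 on the negative-probe scale and 0.01 on the column-median scale.

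Individual receptors spanned a wide range. In all 16 columns 82 receptors exceeded the negative probe, 51 of them Vmn1r and 24 Vmn2r, and 17 lay below it, 9 of them Tas2r. The share of all targets above or below the negative probe in every column is not given here. A level of 1.5 times the negative probe was passed in 5 columns or more by 50 of the 236 receptors, and by 3364 of all 19962 targets. It was passed in all 16 columns by 2 receptors, both Vmn1r. The receptor with the highest mean was Vmn1r88, a pheromone receptor, with 1.97, 2.19, 1.85, 1.82 and 2.13 times the negative probe in 5xFAD-LynKO, 1.81, 1.76, 1.67, 1.97 and 1.61 times in 5xFAD and 1.99 to 2.64 times in WT. Its row neighbour Vmn1r87 stood at 1.86 ± 0.151 times in 5xFAD-LynKO, 1.55 ± 0.142 times in 5xFAD and 2.00 ± 0.213 times in WT. Vmn1r8, Vmn1r100 and Vmn2r13 completed the 5 highest, at 1.53 to 2.15 times the negative probe by genotype mean.

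The lowest receptor was Tas2r137, a bitter taste receptor, at 0.704, 0.428, 0.561, 0.509 and 0.466 times the negative probe in 5xFAD-LynKO, 0.621, 0.627, 0.771, 0.396 and 0.633 times in 5xFAD and 0.392 to 0.77 times in WT. Tas2r110, Tas2r134, Tas2r143 and Vmn1r4 were the next lowest, at genotype means of 0.621 to 0.764 times, and the 3 genotypes overlapped for each of the 5. Values so far under the control probe were held by the same targets in each genotype: across the 236 receptors, the genotype means correlated at r = 0.968 between 5xFAD-LynKO and WT, 0.865 between 5xFAD and WT and 0.919 between 5xFAD-LynKO and 5xFAD. These correlations run across targets that share a column and its depth, and describe only how stable the order was. The SD between receptors of the genotype mean was 22.9% in 5xFAD-LynKO, 20.0% in 5xFAD and 25.2% in WT, while the median SD of a receptor between columns was 8.49% in 5xFAD-LynKO, 10.5% in 5xFAD and 10.4% in WT. If a step is 1 count, counting alone would give a median SD of 6.65% in 5xFAD-LynKO, 7.67% in 5xFAD and 10.4% in WT.

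**Figure D2:**
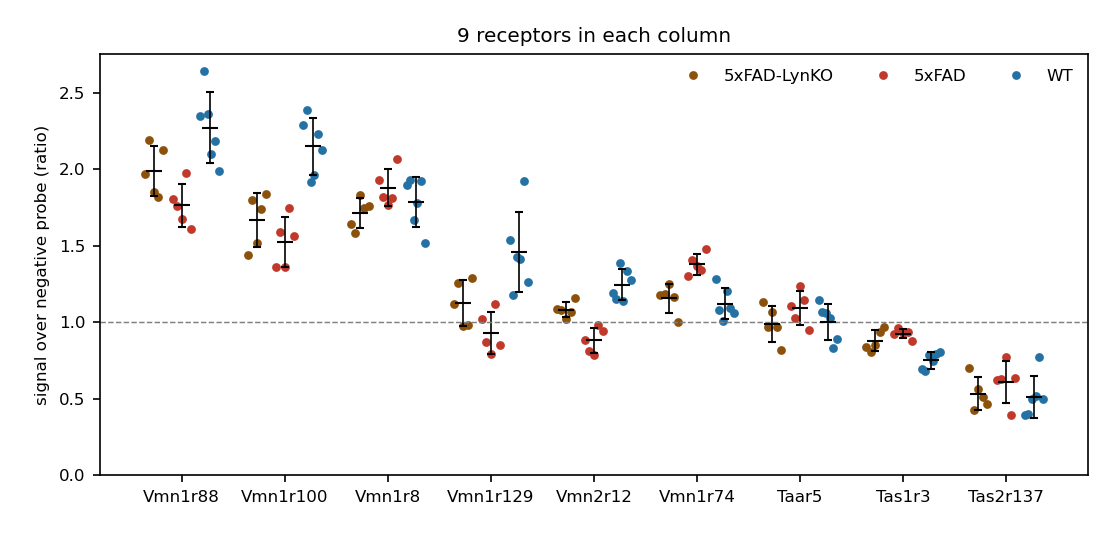
Signal over the negative probe (vertical axis, ratio, from 0) for 9 receptors named in the text. Each point is a column and bars give mean and SD by genotype. Vmn1r88 lies at 1.61 or more in every column and Tas2r137 at 0.771 or less.

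The comparison of 5xFAD with WT asks how receptors that should carry no microglial signal shift with the amyloid genotype. Relative to the column median, 58 vomeronasal receptors fell in 5xFAD, 38 Vmn1r and 20 Vmn2r, and 3 receptors rose: Vmn1r74, Tas1r3 and Tas2r131 (limma, adjusted p under 0.05 over 19960 targets). Over all targets tested, 8.23% were called lower and 5.99% higher, against 24.6% and 1.27% of the 236 receptors. No Tas or Taar receptor was called lower. The median log2 difference was -0.17 over the receptors and 0.01 over all targets. It was -0.21 for Vmn1r and -0.21 for Vmn2r but 0.08 for Tas2r, 0.16 for Tas1r and 0.06 for Taar, and 0.13 for the olfactory receptors, of which 120 were called higher and 2 lower. The count of 58 moved with individual columns: it was 23, 19 and 24 without 5xFAD column 2, 3 or 5, 38 without WT column 3, and 90 without 5xFAD column 4. The share of all targets called in those refits is not given here. These counts therefore show only how far the receptor calls moved. The median stayed between -0.22 and -0.14 whichever column was left out.

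Among the receptors called lower, Vmn2r12 had the smallest adjusted p. It was 0.887, 0.813, 0.785, 0.981 and 0.944 times the negative probe in the 5 columns headed 5xFAD and 1.14 to 1.39 times in WT, with no overlap. Its log2 difference relative to the column median was -0.42 ± 0.0793 (SE, limma adjusted p = 0.00241). In 5xFAD-LynKO it stood between them at 1.02 to 1.16 times, above every 5xFAD column and overlapping WT. Vmn1r129 was 1.02, 0.873, 0.792, 1.12 and 0.848 times the negative probe in 5xFAD and 1.18 to 1.92 times in WT, again without overlap (log2 difference -0.55 ± 0.108, limma adjusted p = 0.00262). Vmn1r189 was 1.09 to 1.55 times in 5xFAD and 1.63 to 2.4 times in WT (-0.54 ± 0.108, limma adjusted p = 0.00303). Vmn1r191 was 0.983 to 1.35 times in 5xFAD and 1.34 to 1.84 times in WT, where the groups met at their edges (-0.43 ± 0.0899, limma adjusted p = 0.00376). All 4 are vomeronasal receptors for which no role in brain is assumed here.

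The receptors that rose did so from different levels. Tas1r3, the common subunit of the sweet and umami receptors, was 0.921, 0.96, 0.928, 0.938 and 0.878 times the negative probe in 5xFAD and 0.682 to 0.807 times in WT. Its groups did not overlap, the log2 difference was 0.38 ± 0.0814 (limma adjusted p = 0.00424), and every value was below the negative probe. Its partners did not pass: Tas1r1, the umami subunit, differed by 0.16 ± 0.0928 (limma adjusted p = 0.234) and Tas1r2, the sweet subunit, by 0.01 ± 0.0908 (limma adjusted p = 0.936). Vmn1r74 was 1.3, 1.41, 1.37, 1.34 and 1.48 times the negative probe in 5xFAD and 1.01 to 1.28 times in WT (0.38 ± 0.0824, limma adjusted p = 0.00437). Tas2r131, a bitter receptor, was 0.86 to 1.06 times in 5xFAD and 0.699 to 0.914 times in WT, with overlap (0.32 ± 0.0916, limma adjusted p = 0.022). Relative to the negative probe Tas2r131 did not pass (0.24 ± 0.0888, adjusted p = 0.065), while Tas1r3 and Vmn1r74 did. Taar1, the trace amine receptor that is also known from monoamine neurons of the brain, differed by 0.16 ± 0.0917 (limma adjusted p = 0.232), and Taar5, the mouse receptor for trimethylamine, by 0.21 ± 0.0962 (limma adjusted p = 0.142).

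The zero of the scale decided how many receptors were called. Relative to the negative probe, 103 receptors were called lower in 5xFAD, namely 65 Vmn1r, 37 Vmn2r and 1 Tas2r, and 2 were called higher. The 103 include all 58 of the column-median scale. The calls stood against 14.8% lower and 2.49% higher over all targets (limma). The receptor median on that scale was -0.25 and that of all targets -0.07. In the signal as deposited, whose median differs between genotypes, all 236 receptors were called higher in 5xFAD than in WT, as were 99.3% of all targets. The deposited median log2 difference was 0.70 for receptors and 0.88 for all targets.

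In 5xFAD-LynKO against WT, relative to the column median, limma called 0 receptors higher and 0 lower, where 0.00501% and 0.0551% of all targets were called, and 11 receptors had an unadjusted p under 0.05. The share of all targets at that unadjusted cut is not given here or below. Such counts are therefore not read as results about the receptors. The median difference was -0.04 over receptors, with -0.05 for Vmn1r, -0.05 for Vmn2r and 0.03 for Tas2r. Relative to the negative probe, limma again called 0 in either direction, against 0% higher and 0.0752% lower of all targets, with 36 receptors at an unadjusted p under 0.05 and a receptor median of -0.11. As deposited, 236 receptors were called higher, against 99.8% of all targets.

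Against 5xFAD, the 5xFAD-LynKO columns gave a median receptor difference of 0.11 relative to the column median, of 0.13 for Vmn1r and 0.17 for Vmn2r, and of -0.06 for Tas2r. Limma called 0 receptors and 0% of all targets in either direction. An unadjusted p under 0.05 was reached by 55 receptors, again without the share of all targets beside it. With array weights 13 receptors were called higher, where 2.3% of all targets were, and under quantile normalization 3, where 0.731% were. Relative to the negative probe it also called 0 receptors and 0% of all targets, with a receptor median of 0.12 and 51 receptors at an unadjusted p under 0.05. As deposited, 212 receptors were called higher, against 75.2% of all targets. The comparisons share columns, so their values are given side by side only: Vmn1r189 differed by -0.54 between 5xFAD and WT, by -0.15 between 5xFAD-LynKO and WT and by 0.38 between 5xFAD-LynKO and 5xFAD, and of these 3 differences only the first passed the threshold.

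**Figure D3:**
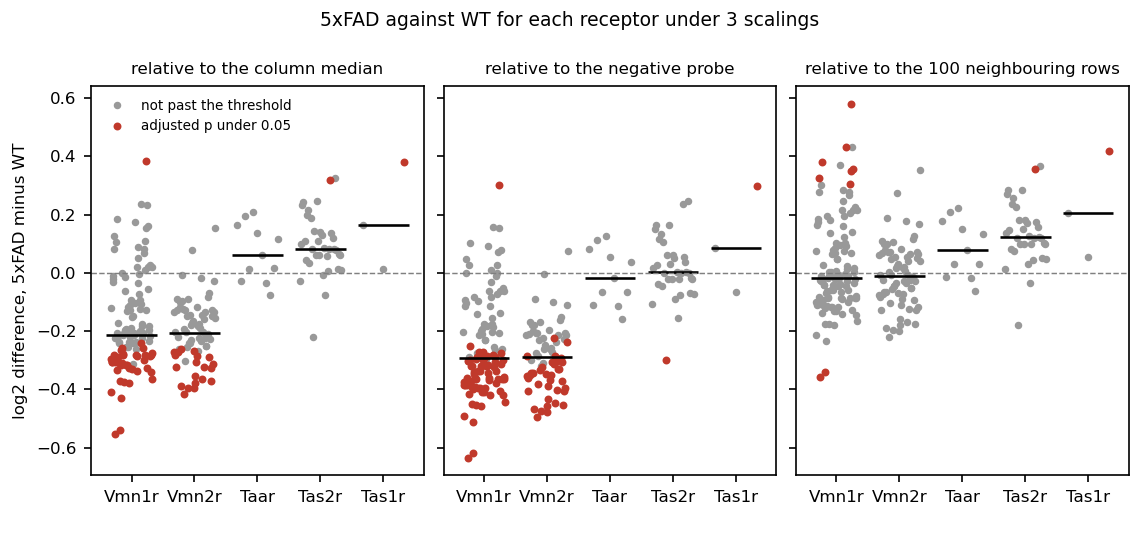
Log2 difference of 5xFAD minus WT (vertical axis) for each of the 236 receptors by family, relative to the column median, to the negative probe and to the 100 neighbouring rows. Each point is a receptor in table order, red points have an adjusted p under 0.05, and black lines are family medians. Vmn1r and Vmn2r medians lie at -0.21 on the first scale and at -0.02 and -0.01 on the last, where all vomeronasal receptors have the same 100 rows.

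The vomeronasal receptors also share their place in the table. The rows are in alphabetical order of symbol without exception, and the 187 vomeronasal receptors occupy 187 consecutive rows. The pattern described next was noticed after the values had been seen. Both the level and the genotype difference ran in stretches along that order, also for targets that are no receptors. With the receptors left out, 23 of 197 windows of 100 rows had a median log2 difference of -0.2 or less between 5xFAD and WT, and 21 of those 23 began with a symbol from T to Z. They fell within a run of 22 windows whose first row is Tbc1d12 and whose last row is Zfp101. Of the 2719 targets from T to Z that are no receptors, 980 (36%) were called lower in 5xFAD, against 605 of 17005 (3.56%) with other initials. The Taar and Tas rows, although they begin with T, lie just before the first of these windows.

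**Figure D4:**
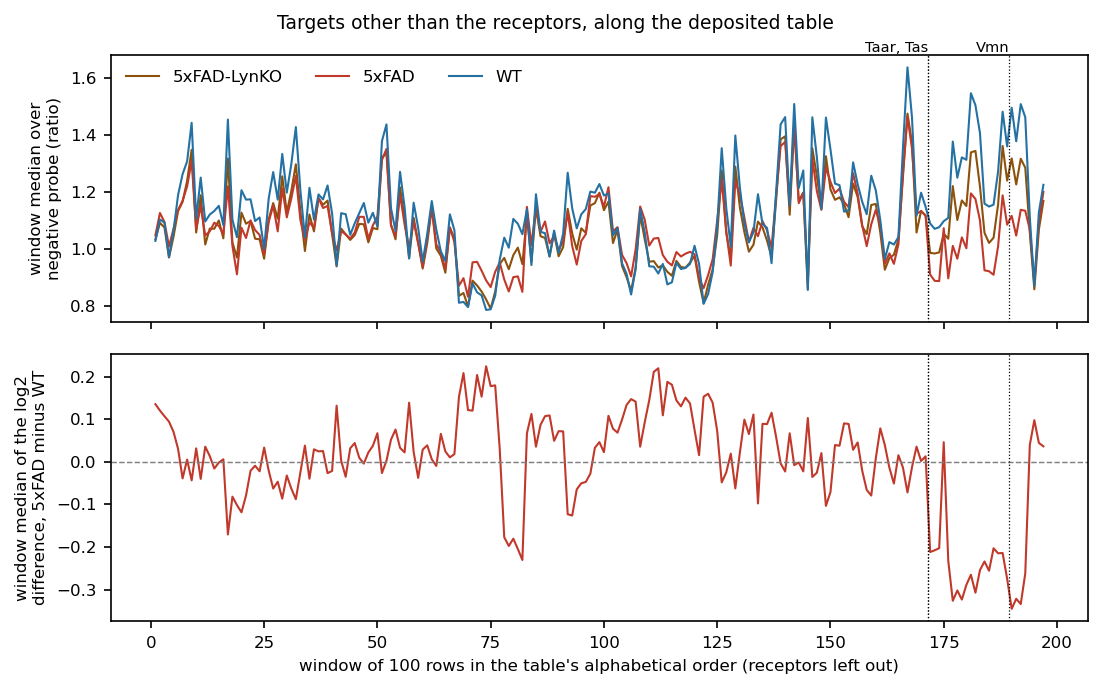
Targets other than the receptors in windows of 100 rows along the table's alphabetical order (horizontal axis). The upper panel gives the window median over the negative probe by genotype, the lower panel the window median of the log2 difference of 5xFAD minus WT. Dotted lines mark where the Taar and Tas rows and the Vmn rows stand. The lower curve falls to -0.35 in the windows around the Vmn rows.

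Rows next to the vomeronasal receptors hold unrelated genes whose symbols happen to sort there. The 50 rows before them had a median difference of -0.22 between 5xFAD and WT, with 14 called lower and 0 higher, and the 50 rows after them had -0.27, with 22 lower and 1 higher. The vomeronasal receptors had -0.21, with 58 of 187 lower. In levels, the median of the vomeronasal receptors over that of these 100 rows was 0.989 ± 0.0262 in 5xFAD-LynKO, 0.982 ± 0.01 in 5xFAD and 0.980 ± 0.0243 in WT (SD, n = 5, 5 and 6). The 50 rows before and after the Tas receptors had median differences of 0.01 and -0.04, and those before and after the Taar receptors -0.06 and 0.05.

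**Figure D5:**
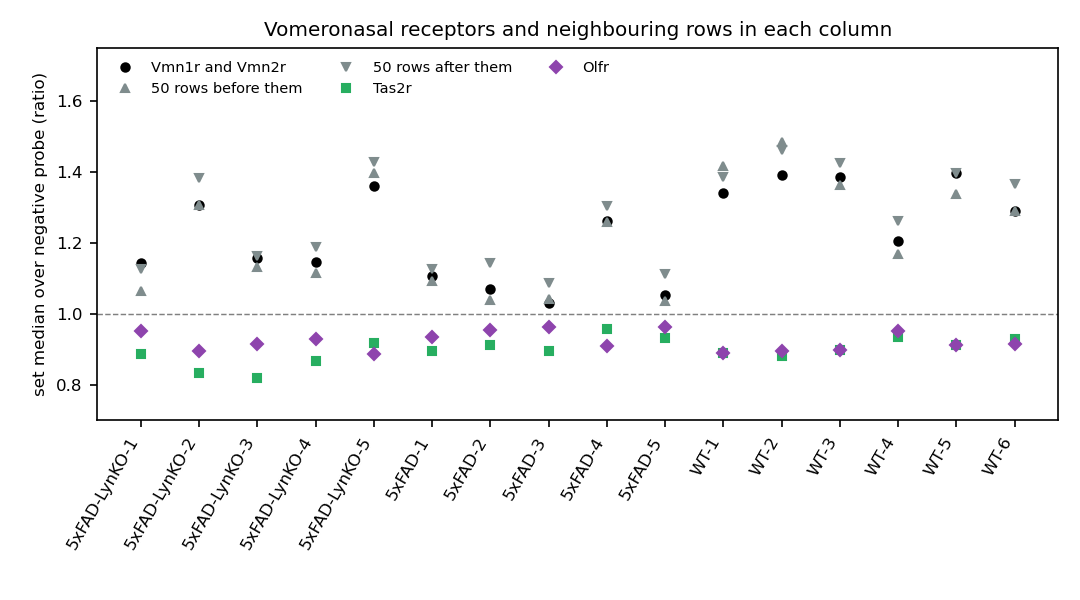
Median over the negative probe (vertical axis, ratio) of the 187 vomeronasal receptors, of the 50 rows before and 50 rows after them, of 35 Tas2r and of 929 Olfr targets in each of the 16 columns (horizontal axis). The vomeronasal receptors and their neighbouring rows lie together in each column, between 1.03 and 1.48, while Tas2r and Olfr lie below 1.

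When each target was centred on the median of the 50 nearest rows on either side that hold no receptor, an alternative chosen after seeing the data, 2 receptors were called lower and 9 higher in 5xFAD against WT (limma), where 1.43% and 1.45% of all targets were called. The 2 were Vmn1r129 (-0.36 ± 0.0983, adjusted p = 0.0454) and Vmn1r189 (-0.34 ± 0.0857, adjusted p = 0.0296), both among the 58. The 9 were Tas1r3, Tas2r131, Vmn1r74, Vmn1r8, Vmn1r17, Vmn1r51, Vmn1r69, Vmn1r72 and Vmn1r119, of which the first 3 had been called before. The receptor median became 0.02, with -0.02 for Vmn1r and -0.01 for Vmn2r. All 187 vomeronasal receptors have the same 100 neighbouring rows, so this scale moves them by 1 amount per column. Their medians near 0 thus restate the comparison with those rows above and are no separate result. Against WT, 5xFAD-LynKO gave 0 receptor calls on this scale, with 0% of all targets higher and 0.0301% lower and 11 receptors at an unadjusted p under 0.05. Against 5xFAD it gave 0 calls, with 0% of all targets in either direction and 18 receptors at an unadjusted p under 0.05. The cause of the runs along the table was not tested.

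The transduction partners are a list of G proteins, enzymes, channels, chaperones and other genes of vomeronasal neurons, taste cells and trace amine receptor neurons. The list also holds genes of those cells that are not signalling steps of these receptors. Of 29 partner genes measured, 1 was called higher and 2 lower in 5xFAD against WT relative to the column median, or 3.45% and 6.90%, both under the 5.99% and 8.23% of all targets. Their median difference was -0.02. Gnb3, a G protein beta subunit of taste cells and cone photoreceptors, was higher (0.36 ± 0.109, limma adjusted p = 0.0288), at 0.78 to 0.845 times the negative probe in 5xFAD and 0.559 to 0.861 times in WT. It did not pass relative to the negative probe (0.27 ± 0.101, adjusted p = 0.0589) or centred on its neighbours (0.20 ± 0.1, adjusted p = 0.263). Trpm5, the taste cell cation channel, was lower (-0.31 ± 0.0975, limma adjusted p = 0.0313), at 1.04 to 1.46 times in 5xFAD and 1.37 to 1.99 times in WT. It too lies among the T to Z rows, and centred on its neighbours it differed by -0.08 (adjusted p = 0.604). Plcb2, the phospholipase of taste cells, was lower (-0.24 ± 0.0827, limma adjusted p = 0.0484) and stayed so against its neighbours (-0.32 ± 0.0777, adjusted p = 0.0263).

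The other named partners did not pass. Trpc2, the channel of vomeronasal neurons, differed by -0.18 ± 0.0964 (limma adjusted p = 0.22), and Gnat3, the gustducin subunit, by 0.20 ± 0.125 (limma adjusted p = 0.282). Gnai2, which many cell types express, differed by -0.15 ± 0.16 (limma adjusted p = 0.547). Gnao1, an abundant G protein of brain neurons, was 2.18 to 4.39 times the negative probe in 5xFAD-LynKO, 2.45 to 3.63 times in 5xFAD and 3.44 to 5.62 times in WT, and differed by -0.51 ± 0.184 between 5xFAD and WT (limma adjusted p = 0.0608). In 5xFAD-LynKO, limma called 0 of the 29 partners against WT, with 0 at an unadjusted p under 0.05, and 0 against 5xFAD, with 1 at an unadjusted p under 0.05.

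Microglial and astrocyte marker signal and depth differed between 5xFAD and WT columns without overlap, whereas oligodendrocyte, endothelial and neuronal marker signal overlapped. The summed ratio to the column median of 12 microglial markers was 13.1 to 14.1 in 5xFAD-LynKO, 13.5 to 15.9 in 5xFAD and 17.2 to 40.1 in WT. Of the WT columns, 1 and 3 stood at 40.1 and 34.8 and the others at 17.2 to 18.3. Columns 1 and 3 of WT were left out in an alternative below. The summed ratio of 6 astrocyte markers was 10.7 to 17.6 in 5xFAD-LynKO, 9.82 to 14.0 in 5xFAD and 15.0 to 22.1 in WT, without overlap between 5xFAD and WT. That of 5 oligodendrocyte markers was 8.25 to 21.9 in 5xFAD-LynKO, 8.57 to 13.6 in 5xFAD and 8.52 to 35.6 in WT. That of 4 endothelial markers was 4.31 to 4.58 in 5xFAD-LynKO, 4.12 to 4.68 in 5xFAD and 4.19 to 4.49 in WT. That of 6 neuronal markers was 13.1 to 40.1 in 5xFAD-LynKO, 13.5 to 33.7 in 5xFAD and 20.1 to 55.2 in WT, and each genotype had a column in which all 6 were above 1.5 times the negative probe. The median receptor had 171 to 292 implied counts in 5xFAD-LynKO columns, 150 to 197 in 5xFAD columns and 65 to 129 in WT columns. The part of these differences in the receptor shifts was not tested.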

How the data were processed

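Values are the signal the authors deposited for 19963 rows and 16 columns. How it was normalized, the probe sequences and the genome build are not given in the sources consulted. In each column 19959 rows were whole multiples of a step within a tolerance of 0.000001, but the smallest value was 9 to 66 steps, and reads were not treated as recovered counts. Columns of a genotype differed by 1.16 to 6.64 in chi-square per degree of freedom, so within a genotype none copied another.

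Values were taken as log2(signal + 1) minus the column median and fitted in R 4.3.3 by limma 3.58.1 (linear model with contrasts, then eBayes with a trend). The fit covered 19960 targets, since Tmem119 and Gfap, which were stained to segment the regions, were omitted. A call had a Benjamini-Hochberg adjusted p under 0.05. No filter on low values was set. Fold changes of targets near background are understated. The fit was tested on simulated data.

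Receptors, lists and alternatives were chosen with earlier results of these data known. Named were Tas1r1, Tas1r2, Tas1r3, Taar1 and Taar5, the 5 highest and 5 lowest receptors, up to 4 called receptors per direction with the smallest adjusted p, and 6 partners plus up to 3 called per direction. No coordinates are given because the build is not named. Alternatives were other scalings, pseudocounts of 5 and 0.1, a filter on background, weights per column, a block on the heading number and leaving out columns.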

Additional observations from a re-analysis of the deposited data

Results flagged for a closer look

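In 7 of 108 groups of columns tested, the highest or lowest column stood far from the others of its genotype, and chance alone flags about 1 in 20 groups. The median of all receptors over the negative probe was 1.20 in 5xFAD column 4, against 1.03 to 1.07 in the other 5xFAD columns. The Vmn1r median was 1.29 in that same column, against 1.08 to 1.11 in the others. Among receptors, Tas1r1 stood at 0.994 times the negative probe in WT column 1, against 0.699 to 0.79 in the other WT columns. Vmn2r13 was 1.45 in WT column 4, against 1.90 to 2.16 in the others. Tas2r137 was 0.770 in WT column 5, against 0.392 to 0.518 in the others. Among partners, Gnai2 was 2.26 in 5xFAD-LynKO column 5, against 1.13 to 1.34 in the other columns of that genotype, and Trpc2 was 1.11 in WT column 4, against 1.44 to 1.60 in the others.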

How the results depend on the processing

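For 5xFAD against WT, 58 receptors were called lower and 3 higher relative to the column median. All targets were called at 8.23% lower and 5.99% higher there. Relative to the negative probe 103 receptors were lower and 2 higher, against 14.8% and 2.49% of all targets. Centred on neighbouring rows, which was chosen after seeing the data, 2 were lower and 9 higher, against 1.43% and 1.45%. The calls were 33 lower and 6 higher relative to the upper quartile, 51 and 5 under quantile normalization, and 82 and 6 with array weights. Without WT columns 1 and 3 they were 22 and 2. As deposited they were 0 lower and 236 higher, where 99.3% of all targets were called higher. When targets had to pass 1.5 times the negative probe in 5 columns or more they were 17 lower and 0 higher of 50, which passed that filter partly through the WT columns and support nothing. Leaving out each column gave 19 to 90 lower and 2 to 6 higher. For this comparison the share of all targets is not given under the upper quartile, quantile normalization, array weights, the filter or columns left out. Those counts show only how far the receptor calls moved. The median difference of -0.17 became -0.25 relative to the negative probe, 0.70 as deposited and 0.017 on neighbouring rows.

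For 5xFAD-LynKO against WT, the deposited signal gave 236 higher and a median of 1.13. For 5xFAD-LynKO against 5xFAD it gave 212 higher and a median of 0.41. There the calls higher were 3 under quantile normalization, 13 with array weights and 0 to 2 when a column was left out, and the median on neighbouring rows was -0.0051. The share of all targets with a column left out is not given there either. The negative probe of 5xFAD-LynKO against WT, relative to the receptor median, differed by 0.0698 (exact permutation adjusted p = 0.0714), and relative to the upper quartile by 0.061 (exact permutation adjusted p = 0.0779). The other 265 recomputed values moved by less than 1.5 times or less than the spread between columns, or kept their side of the threshold. Among them, medians and negative-probe differences could not change where the column left out belonged to neither genotype compared. Those values say nothing about stability.

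With the heading number as a replicate block, 35 receptors were called lower and 3 higher in 5xFAD against WT. The share of all targets called under the block is not given here, so these counts too show only how far the receptor calls moved. Columns of the same number correlated at -0.362 to 0.0879 for 5xFAD with WT and at -0.322 to 0.114 for 5xFAD-LynKO with 5xFAD. For 5xFAD-LynKO with WT they correlated at 0.0534 to 0.452, positive in all 5 pairs. No heading says that the number marks a pairing. The main fit used none, and a pairing is not excluded. The count models planned as alternatives depended on recovering whole reads and were not run, since the smallest values lie many steps above 0. The causes of these changes were not tested.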

Other observations

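The rows from T to Z also hold targets of microglial interest, chosen here after their values were seen. Tlr4, the receptor for bacterial lipopolysaccharide, differed by -0.60 ± 0.101 between 5xFAD and WT relative to the column median (SE, limma adjusted p = 0.00122) and by -0.42 ± 0.0931 when centred on its 100 neighbouring rows (adjusted p = 0.0184). Its ratio to the negative probe was 0.805, 0.829, 0.928, 1.01 and 0.645 in 5xFAD and 1.17 to 1.60 in WT, with no overlap. Trem2, a receptor of microglia, differed by -0.65 ± 0.138 (limma adjusted p = 0.00413) and by -0.34 ± 0.144 when centred on its neighbours (adjusted p = 0.177). Tyrobp, the signalling adaptor of Trem2, differed by -0.94 ± 0.182 (limma adjusted p = 0.00247) and by -0.73 ± 0.183 when centred (adjusted p = 0.0306). Trem2 and Tyrobp belong to the 12 microglial markers. Those markers summed to 13.5 to 15.9 times the column median in 5xFAD and 17.2 to 40.1 times in WT. In 5xFAD-LynKO they summed to 13.1 to 14.1 times. Of the tested markers, limma called 63.6% lower in 5xFAD against WT. What part this lower marker signal has in the Trem2 and Tyrobp differences was not tested.

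For 5xFAD-LynKO against WT, Trem2 differed by -0.69 ± 0.138 (limma adjusted p = 0.0453) and by -0.59 ± 0.144 when centred (adjusted p = 0.229), and Tyrobp by -1.03 ± 0.182 (limma adjusted p = 0.0198) and by -0.98 ± 0.183 when centred (adjusted p = 0.0372). Tlr4 differed there by -0.12 ± 0.101 (limma adjusted p = 0.726). In the direct comparison of 5xFAD-LynKO with 5xFAD, relative to the column median, limma called 0 of 19960 targets higher or lower, Tlr4 included. A change of Tlr4 with loss of Lyn is therefore not read from these values.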
